A study of Mus musculus with 15 samples.

Results

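The 10 genes described here encode the 5 subunits of the transcription factor NF-κB (*Nfkb1*, *Nfkb2*, *Rela*, *Relb* and *Rel*), 3 classical inhibitors that hold it in the cytoplasm (*Nfkbia*, *Nfkbib* and *Nfkbie*) and 2 nuclear IκB proteins that modify its action on DNA (*Nfkbiz* and *Bcl3*). They were picked by name and role, with earlier results of these data known, and no measured value enters the rule. All 10 are among the 20089 complete gene entries of the table, and all 10 passed the filter on low values, which 11743 genes passed.

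RNA-seq was carried out on bone marrow-derived macrophages (BMDMs) of wild-type C57BL/6 mice, 15 libraries in 5 groups of 3. Control cells had received only the growth factor M-CSF, for 3 days according to the sample labels and for 4 days at 50 ng/mL according to the methods. The other groups were given RANKL, the cytokine that turns these precursors into osteoclasts, or LPS, a bacterial cell wall component sensed by a Toll-like receptor, each at 100 ng/mL for 4 h or for 72 h. No library of cells kept for 72 h without either stimulus was analysed here, so time in culture and stimulus cannot be told apart in the contrasts of a 72 h group with control.

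NF-κB proteins act as dimers. In the canonical route, IκB kinase marks the classical inhibitors for degradation and thereby frees dimers such as those of RelA with the *Nfkb1* product. In the noncanonical route, the kinase encoded by *Map3k14* drives the processing of the long *Nfkb2* product, which then pairs with RelB. LPS acts mainly through the canonical route, whereas RANK, the receptor of RANKL, engages both, and osteoclasts do not form in mice that lack *Nfkb1* and *Nfkb2* together. Several of the inhibitor genes are themselves NF-κB targets, so that new inhibitor is made after the pathway has been switched on.

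The deposited values are FPKM, that is, fragments scaled to exon length and to library size. They measure RNA, not the amount of protein or its place in the cell. Summed over the genes with recovered fragments, each library held between 18306184 and 20330207 fragments. The 10 genes held from 120 fragments (*Rel* in a RANKL 4 h library) to 27112 (*Nfkbia* in an LPS 4 h library). All 10 macrophage marker genes were above 1 FPKM on average in every group, and they summed to 7613 to 9325 FPKM per library in control. In control replicates 1 and 3, but not 2, neutrophil markers summed to more (24341 and 21344 FPKM). The same held in RANKL 4 h and LPS 4 h, so the markers do not show that the cells were macrophages alone. Osteoclast markers summed to 1721 to 5474 FPKM per library in RANKL 72 h and to at most 362 FPKM elsewhere, and 9 of 10 rose against control. Neutrophil markers summed to 7912 to 24341 FPKM in control, 1849 to 7451 in RANKL 72 h and 151.6 to 1816 in LPS 72 h. Stromal markers summed to 182 to 403 FPKM in control and to 503 to 2193 in RANKL 72 h. Replicate 3 of LPS 72 h stood apart from its group. Its macrophage sum was 17744 FPKM, the highest of all 15 libraries, against 6341 and 8108 in replicates 1 and 2. Its neutrophil sum was 1816 FPKM against 186 and 152, and its stromal sum 579 against 126 and 131. Its level of the cytokine gene *Il6* was 4.92 FPKM against 27.1 and 24.2. Tests that rest on LPS 72 h are therefore given with and without this replicate, and its own value is given beside the untested ratios and shares. In bulk RNA, fewer cells of a type and less RNA per cell cannot be told apart.

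Promoter sequence is shown for the members whose window before the start site held a match to the NF-κB (κB) consensus motif, the site that NF-κB dimers are known to bind. All 10 members rose in LPS 4 h, with or without a match shown, and whether the size of the response goes with a match was not tested. RefSeq windows of GRCm38.p6 were matched for 7 of 10 members, 9 windows in all because *Nfkb2* has more than 1 start, and no window of *Nfkb1*, *Relb* or *Nfkbiz* was used. The 250 bases before the start site were read on both strands with overlapping matches counted. The motif was found in 6 of 9 member windows and in 4 of 7 genes. It was found in 7.25% of all 32851 windows, and for tested genes the share was 9.03% (n = 11464). All windows of *Nfkb2* held a match and count among the 6. The windows of *Rela*, *Nfkbib* and *Bcl3* held no match to these letters. Each sequence below runs in the direction of the gene and ends at the base before the start site, and capitals mark the κB matches. *Nfkbia* lies on the minus strand of chromosome 12 (window chr12:55492648-55492897), *Nfkb2* on the plus strand of chromosome 19 (its first window, chr19:46304487-46304736), *Rel* on the minus strand of chromosome 11 (chr11:23770970-23771219) and *Nfkbie* on the plus strand of chromosome 17 (chr17:45555450-45555699).
Nfkbia: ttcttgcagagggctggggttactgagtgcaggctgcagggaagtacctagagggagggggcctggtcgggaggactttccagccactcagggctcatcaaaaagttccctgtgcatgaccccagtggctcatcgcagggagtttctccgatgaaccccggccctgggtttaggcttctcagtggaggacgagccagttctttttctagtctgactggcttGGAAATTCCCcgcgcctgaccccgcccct
Nfkb2: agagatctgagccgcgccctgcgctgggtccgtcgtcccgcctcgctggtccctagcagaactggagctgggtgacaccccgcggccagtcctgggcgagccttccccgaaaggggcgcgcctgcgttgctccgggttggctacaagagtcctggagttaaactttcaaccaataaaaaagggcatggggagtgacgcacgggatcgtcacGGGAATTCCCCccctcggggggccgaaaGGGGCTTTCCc
Rel: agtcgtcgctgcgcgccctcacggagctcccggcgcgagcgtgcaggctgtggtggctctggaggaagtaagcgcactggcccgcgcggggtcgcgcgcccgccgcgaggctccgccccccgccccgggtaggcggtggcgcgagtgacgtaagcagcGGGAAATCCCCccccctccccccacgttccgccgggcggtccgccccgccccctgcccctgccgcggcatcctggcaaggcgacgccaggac
Nfkbie: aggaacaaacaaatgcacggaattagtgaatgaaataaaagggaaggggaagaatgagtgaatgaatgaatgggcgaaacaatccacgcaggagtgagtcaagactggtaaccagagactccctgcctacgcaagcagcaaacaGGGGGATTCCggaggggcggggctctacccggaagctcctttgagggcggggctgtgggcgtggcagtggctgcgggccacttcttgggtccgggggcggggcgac
The match in *Nfkbia* begins 29 bases before the start site. In *Nfkb2* a pair of overlapping matches begins 39 and 38 bases before it and another match 11 bases before it. The *Rel* window holds an overlapping pair beginning at 92 and 91 bases, and the *Nfkbie* window 1 match at 106 bases. A match describes letters in a window and does not show that the factor binds there.

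Taken by contrast with control, at least 1 member rose in every stimulated group, and all 10 rose in LPS 4 h. A gene was called at a fold change above 1.5 or below 0.66 with a Benjamini-Hochberg adjusted p under 0.05 from limma, fitted to log2(FPKM + 0.1) over all 11743 genes. Fold changes are on that scale, which understates the change of low genes. In RANKL 4 h, 1 of 10 members was called higher and 0 lower, where 0.111% of all tested genes were called higher and 0.00852% lower. For RANKL 72 h, 6 of 10 were called higher and 0 lower, against 16.6% of all tested genes called higher and 7.54% lower. In LPS 4 h, 10 of 10 were called higher and 0 lower, against 8.43% and 39.7% of all tested genes. In LPS 72 h, 8 of 10 were called higher and 0 lower, against 13.0% and 14.4%. Without replicate 3 of LPS 72 h, 8 were again called higher and 0 lower, with a member median of 1.28, against 18.0% and 15.7% of all tested genes and an all-gene median of 0.13. Every LPS 4 h library lay above every control library for 10 of 10 members, as it did for 10.6% of all tested genes. The median change of the members was 0.44, 0.70, 3.20 and 1.26 in these contrasts, beside medians over all tested genes of 0.00, 0.16, -0.52 and 0.08. The 4 contrasts share their control libraries. The labels do not say whether replicates were separate animals or cultures, and if they were not, the p-values measure only the spread between these libraries. By the two-sided exact permutation test, 3 libraries against 3 cannot give a p below 0.1.

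**Figure D1:**
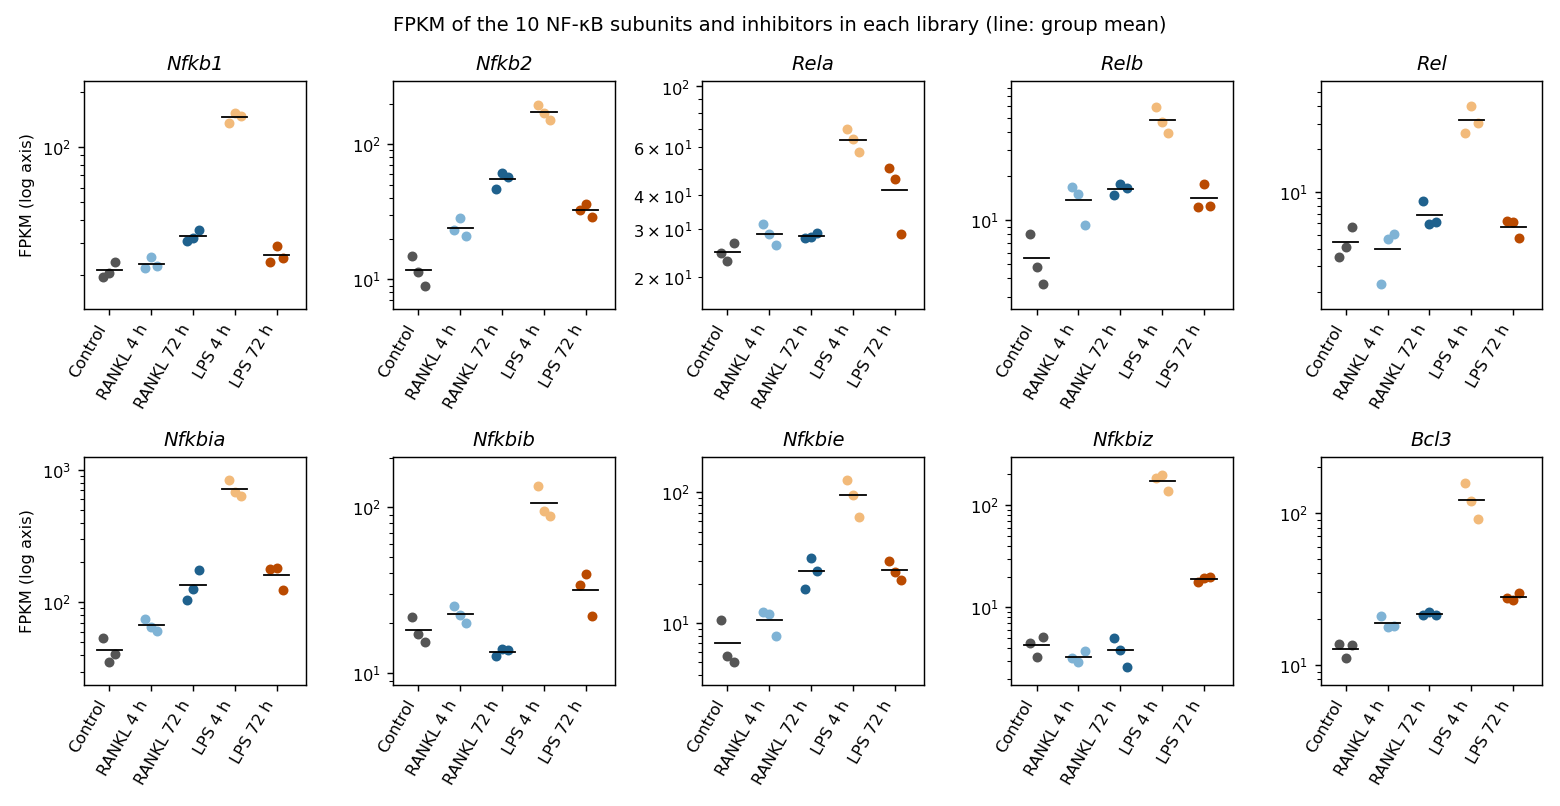
FPKM of each of the 10 genes in each of the 15 libraries, on a log axis with its own range per gene, with a line at each group mean of 3 libraries. The LPS 4 h libraries (light orange) lie above all other libraries for every gene. The RANKL 72 h libraries (dark blue) lie above all control libraries for every gene but *Nfkbib* and *Nfkbiz*, as they do for 33.1% of all tested genes.

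*Nfkb1* encodes the precursor of the subunit that pairs with RelA in the canonical dimer. It lies on chromosome 3 from 135584655 to 135691547 on the minus strand (GENCODE M21, GRCm38, as for all loci below). Its level was 19.5, 20.6 and 23.4 FPKM in the control libraries, 21.8, 25.0 and 22.5 in RANKL 4 h, and 30.8, 31.7 and 35.2 in RANKL 72 h. Control and RANKL 4 h overlapped, and RANKL 72 h lay above both. The LPS 4 h libraries held 136, 153 and 149 FPKM and the LPS 72 h libraries 23.4, 28.7 and 24.9, so that after 72 h of LPS the level was back near that of control. *Nfkb1* rose in LPS 4 h (log2 fold change 2.78, SE 0.11, limma adjusted p = 1.24e-09) and in RANKL 72 h (0.62, SE 0.11, adjusted p = 0.00111). The RANKL 72 h value is just past the fold threshold and was not called without control replicate 1 (0.56), without RANKL 72 h replicate 3 (0.56) or with each library centred on its median gene (0.40). In LPS 72 h the change was 0.28 (95% interval 0.04 to 0.52, adjusted p = 0.0652), and 0.30 without replicate 3.

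*Nfkb2*, on chromosome 19 from 46304320 to 46312385 on the plus strand, encodes the precursor that the noncanonical route processes. It was the subunit gene with the largest rise in both RANKL 72 h and LPS 4 h. Control libraries held 14.8, 11.3 and 9.0 FPKM, RANKL 4 h libraries 23.1, 28.4 and 20.8, and RANKL 72 h libraries 46.2, 61.7 and 57.3. These 3 groups did not overlap, and the order was control, RANKL 4 h, RANKL 72 h. LPS 4 h libraries held 196, 171 and 152 FPKM and LPS 72 h libraries 32.6, 36.2 and 28.9, the latter between the levels of the RANKL groups. The rise was 2.24 (SE 0.18, adjusted p = 2.41e-06) in RANKL 72 h, 3.89 (SE 0.18, adjusted p = 3.49e-09) in LPS 4 h and 1.49 (SE 0.18, adjusted p = 5.44e-05) in LPS 72 h, all from limma. Without replicate 3 of LPS 72 h, the last value was 1.57. The annotated locus shares 299 bases with *Psd* and 1292 with a noncoding RNA on the opposite strand, and whether strand was used in counting is not given in the sources used here. *Psd* itself was at most 0.076 FPKM in any library.

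At 4 h of RANKL, *Nfkb2* was the only member called (1.05, SE 0.18, adjusted p = 0.0449 by limma), with all 3 libraries above all control libraries. That call is close to its threshold: it was lost in 17 of 26 alternatives, over which the adjusted p ranged from 0.0214 to 0.324 and the change from 0.88 to 1.24. It was lost without any one of the 3 RANKL 4 h libraries and without control replicate 2 or 3, as well as without libraries of other groups that lend only their spread. With the replicate number as a block, 2 members were called, *Nfkb2* (adjusted p = 0.0249) and *Relb* (1.33, adjusted p = 0.0367), and 0.187% of all tested genes were called higher. At an unadjusted p under 0.05, 3 members passed (*Nfkb2*, *Relb* and *Nfkbia*), beside 1.21% of all genes. In 4 members, namely *Nfkb2*, *Relb*, *Nfkbia* and *Bcl3*, every RANKL 4 h library lay above every control library, as in 6.05% of all tested genes.

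*Rela*, on chromosome 19 from 5637483 to 5648130 on the plus strand, encodes the subunit with the main activation domain of the canonical dimer. It was the most even of the subunit genes. Its level was 24.5, 22.9 and 26.7 FPKM in control, 31.3, 28.7 and 26.3 in RANKL 4 h and 27.9, 28.2 and 29.0 in RANKL 72 h. The RANKL 72 h libraries lay above control by a margin smaller than the spread of the RANKL 4 h libraries. In LPS 4 h the level was 69.8, 64.3 and 57.5 FPKM and in LPS 72 h 50.3, 45.6 and 28.8, the last being replicate 3. *Rela* rose in LPS 4 h (1.37, SE 0.17, limma adjusted p = 1.48e-05) and in LPS 72 h (0.71, SE 0.17, adjusted p = 0.00489). Without replicate 3 the LPS 72 h change was 0.96, and without replicate 1 it was 0.56 and no longer past the fold threshold. In RANKL 72 h the change was 0.20 (95% interval -0.16 to 0.56, adjusted p = 0.377).

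*Relb*, on chromosome 7 from 19606217 to 19629438 on the minus strand, encodes the partner of the processed *Nfkb2* product. Control libraries held 8.07, 4.82 and 3.69 FPKM, RANKL 4 h libraries 16.9, 15.1 and 9.24, and RANKL 72 h libraries 14.8, 17.5 and 16.5. Both RANKL groups lay above control, and they overlapped each other. LPS 4 h libraries held 59.1, 46.7 and 39.4 FPKM and LPS 72 h libraries 12.2, 17.5 and 12.5, which overlapped both RANKL groups. *Relb* rose by limma in RANKL 72 h (1.61, SE 0.27, adjusted p = 0.000817), in LPS 4 h (3.16, SE 0.27, adjusted p = 7.17e-07) and in LPS 72 h (1.39, SE 0.27, adjusted p = 0.00165). Without replicate 3 the LPS 72 h value was 1.46. In RANKL 4 h the change was 1.33 (95% interval 0.74 to 1.92), but its adjusted p was 0.112.

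*Rel*, on chromosome 11 from 23736847 to 23770970 on the minus strand, encodes c-Rel, a subunit prominent in activated lymphocytes and myeloid cells. It had the lowest mean of the subunit genes in every group, with 195 to 293 fragments per control library. Its level was 3.51, 4.08 and 5.67 FPKM in control, 2.25, 4.71 and 5.03 in RANKL 4 h and 8.61, 5.94 and 6.17 in RANKL 72 h. LPS 4 h libraries held 25.9, 39.9 and 30.5 FPKM and LPS 72 h libraries 6.23, 6.16 and 4.73. Apart from LPS 4 h, neighbouring groups in the order of levels overlapped. *Rel* rose in LPS 4 h (2.84, SE 0.28, limma adjusted p = 2.48e-06). In RANKL 72 h the change was 0.64 (95% interval 0.03 to 1.25, adjusted p = 0.101) and in LPS 72 h 0.38 (-0.23 to 0.99, adjusted p = 0.319), or 0.51 without replicate 3.

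The make-up of the subunit RNAs differed between groups, since the genes rose by unequal amounts. FPKM are scaled to length, so levels can be set beside each other. In control, *Rela* held 36.6% ± 2.15 (SD, n = 3) of the summed FPKM of the 5 subunit genes and *Nfkb2* 17.3% ± 3.97. In RANKL 72 h, *Rela* held 20.4% ± 1.18 and *Nfkb2* 39.4% ± 3.27, and neither range overlapped that of control. In LPS 4 h the shares were 13.8% ± 0.503 and 37.2% ± 2.58, close to those of RANKL 72 h for *Nfkb2* although the sum itself was 463 FPKM ± 31.0 against 139 ± 9.41. In LPS 72 h, *Rela* held 34.4% ± 5.73, from 40.3% in replicate 1 to 28.9% in replicate 3, and *Nfkb2* 27.4% ± 1.47, with 29.0% in replicate 3. The ratio of *Nfkb2* to *Nfkb1* went from 0.565 ± 0.189 in control to 1.04 ± 0.107 in RANKL 4 h and 1.69 ± 0.229 in RANKL 72 h, with no overlap between these groups. It was 1.19 ± 0.218 in LPS 4 h and 1.27 ± 0.113 in LPS 72 h (1.16 in replicate 3), so the LPS libraries too lay above every control library. These shares and ratios are descriptions and were not tested.

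**Figure D2:**
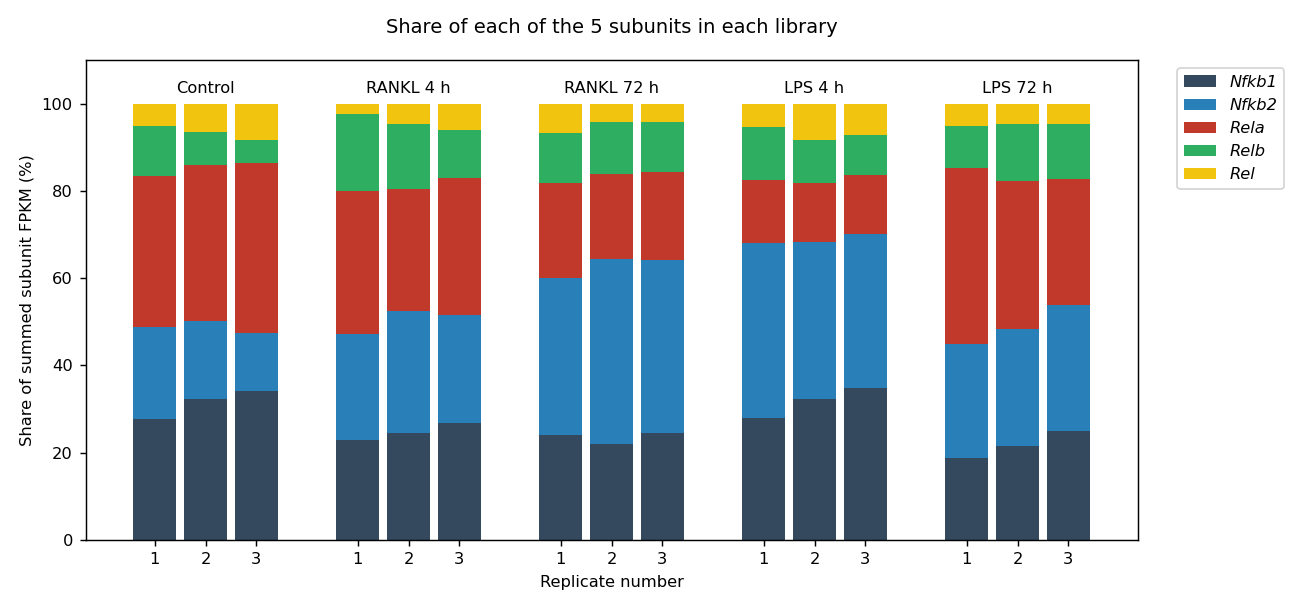
Share of each subunit gene in the summed FPKM of the 5 subunit genes, in percent, 1 stacked bar for each of the 15 libraries. The *Nfkb2* share (blue) is 13.2% to 21.1% in control and 36.0% to 42.5% in RANKL 72 h, while the *Rela* share (red) falls from 34.8% to 39.0% in control to 19.4% to 21.7% in RANKL 72 h.

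Of the classical inhibitors, *Nfkbia* encodes IκBα, the quickly degraded and quickly remade inhibitor of canonical dimers. It lies on chromosome 12 from 55489410 to 55492647 on the minus strand and was the most abundant member in every group. Control libraries held 54.0, 35.6 and 40.6 FPKM, RANKL 4 h libraries 74.7, 65.6 and 60.5, and RANKL 72 h libraries 103.3, 125 and 177. These groups did not overlap. The LPS 4 h libraries held 837, 675 and 635 FPKM and LPS 72 h libraries 178, 182 and 125, the last overlapping RANKL 72 h. *Nfkbia* rose by limma in RANKL 72 h (1.62, SE 0.21, adjusted p = 0.000141), in LPS 4 h (4.05, SE 0.21, adjusted p = 1.01e-08) and in LPS 72 h (1.90, SE 0.21, adjusted p = 2.93e-05, or 2.07 without replicate 3). In RANKL 4 h the change was 0.64 (95% interval 0.18 to 1.10) with an adjusted p of 0.578.

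*Nfkbie* encodes IκBε, an inhibitor made with delay that acts on RelA and c-Rel dimers. It lies on chromosome 17 from 45555703 to 45563169 on the plus strand. Its level was 10.6, 5.58 and 5.02 FPKM in control, 12.1, 11.7 and 7.98 in RANKL 4 h and 18.3, 31.2 and 25.0 in RANKL 72 h. The first 2 groups overlapped and RANKL 72 h lay above both. After LPS the level was 125, 95.5 and 64.8 FPKM at 4 h and 30.1, 24.5 and 21.3 at 72 h. *Nfkbie* rose by limma in RANKL 72 h (1.85, SE 0.30, adjusted p = 0.00061), in LPS 4 h (3.76, SE 0.30, adjusted p = 3.53e-07) and in LPS 72 h (1.89, SE 0.30, adjusted p = 0.000361, or 2.01 without replicate 3). Its change in RANKL 4 h was 0.64 (95% interval -0.01 to 1.28).

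*Nfkbib* encodes IκBβ, an inhibitor known for a slower response than IκBα, and it lies on chromosome 7 from 28758251 to 28767512 on the minus strand. It was the classical inhibitor that did not rise under RANKL. Control libraries held 21.9, 17.4 and 15.4 FPKM, RANKL 4 h libraries 25.4, 22.5 and 20.01, and RANKL 72 h libraries 12.7, 13.97 and 13.8. Every RANKL 72 h library was below every control library, and the change of -0.42 (95% interval -0.86 to 0.03) did not pass the test (limma adjusted p = 0.143). With libraries centred on the median gene it was -0.64 and was called lower (adjusted p = 0.0384). LPS 4 h libraries held 135, 95.1 and 88.7 FPKM and LPS 72 h libraries 33.9, 39.6 and 22.2, the lowest again being replicate 3. *Nfkbib* rose in LPS 4 h (2.53, SE 0.21, adjusted p = 4.59e-07) and in LPS 72 h (0.78, SE 0.21, adjusted p = 0.0104). The LPS 72 h change was 1.02 without replicate 3 and, without replicate 2, 0.61 with an adjusted p of 0.0557. The locus shares 778 bases with *Sirt2*, which lies on the opposite strand and held 35.5 to 50.6 FPKM across the libraries.

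The 3 classical inhibitors together held 1.01 ± 0.187 (SD, n = 3) times the FPKM of the 5 subunits in control. The ratio was 1.07 ± 0.10 in RANKL 4 h, 1.24 ± 0.230 in RANKL 72 h, 1.97 ± 0.244 in LPS 4 h and 1.82 ± 0.129 in LPS 72 h, where replicate 3 was the lowest at 1.68. Both LPS groups lay above all control and RANKL libraries, and RANKL 72 h overlapped control. *Nfkbia* alone made up 63.3% ± 2.92 of the summed inhibitor FPKM in control, 66.9% ± 1.37 in RANKL 4 h, 77.5% ± 4.31 in RANKL 72 h, 78.3% ± 2.13 in LPS 4 h and 73.9% ± 0.267 in LPS 72 h (74.1% in replicate 3). The 72 h groups of both stimuli and LPS 4 h thus lay above every control library.

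*Nfkbiz* encodes IκBζ, a nuclear protein needed for a later wave of LPS-induced genes such as *Il6*. It lies on chromosome 16 from 55811375 to 55838899 on the minus strand and showed the sharpest contrast between the stimuli. Control libraries held 4.53, 3.28 and 5.17 FPKM, RANKL 4 h libraries 3.17, 2.92 and 3.73, and RANKL 72 h libraries 5.06, 3.80 and 2.62. These 3 groups overlapped. With LPS, the 4 h libraries held 184, 197 and 138 FPKM and the 72 h libraries 17.9, 19.2 and 19.7, both above every other library. The rise was 5.30 (SE 0.22, limma adjusted p = 1.49e-09) in LPS 4 h, the largest of any member, and 2.13 (SE 0.22, adjusted p = 1.93e-05) in LPS 72 h, or 2.10 without replicate 3. In RANKL 4 h and RANKL 72 h the changes were -0.37 (95% interval -0.85 to 0.10) and -0.20 (-0.67 to 0.28).

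*Bcl3* encodes a nuclear IκB protein that binds homodimers of the *Nfkb1* and *Nfkb2* products, and it lies on chromosome 7 from 19808462 to 19822770 on the minus strand. Its level was 13.7, 11.02 and 13.4 FPKM in control, 20.8, 17.7 and 17.9 in RANKL 4 h and 21.3, 22.1 and 21.2 in RANKL 72 h. None of these groups overlapped. At 4 h of LPS the libraries held 156, 120.1 and 91.3 FPKM and at 72 h 27.7, 26.5 and 29.8. *Bcl3* rose by limma in RANKL 72 h (0.76, SE 0.16, adjusted p = 0.00317), in LPS 4 h (3.23, SE 0.16, adjusted p = 5.85e-09) and in LPS 72 h (1.14, SE 0.16, adjusted p = 0.000142, or 1.09 without replicate 3). With libraries centred on the median gene the RANKL 72 h change was 0.54 and under the fold threshold. Unlike *Nfkbiz*, *Bcl3* was thus called higher under both stimuli at 72 h, and its locus overlaps 2 antisense genes that the table does not list.

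**Figure D3:**
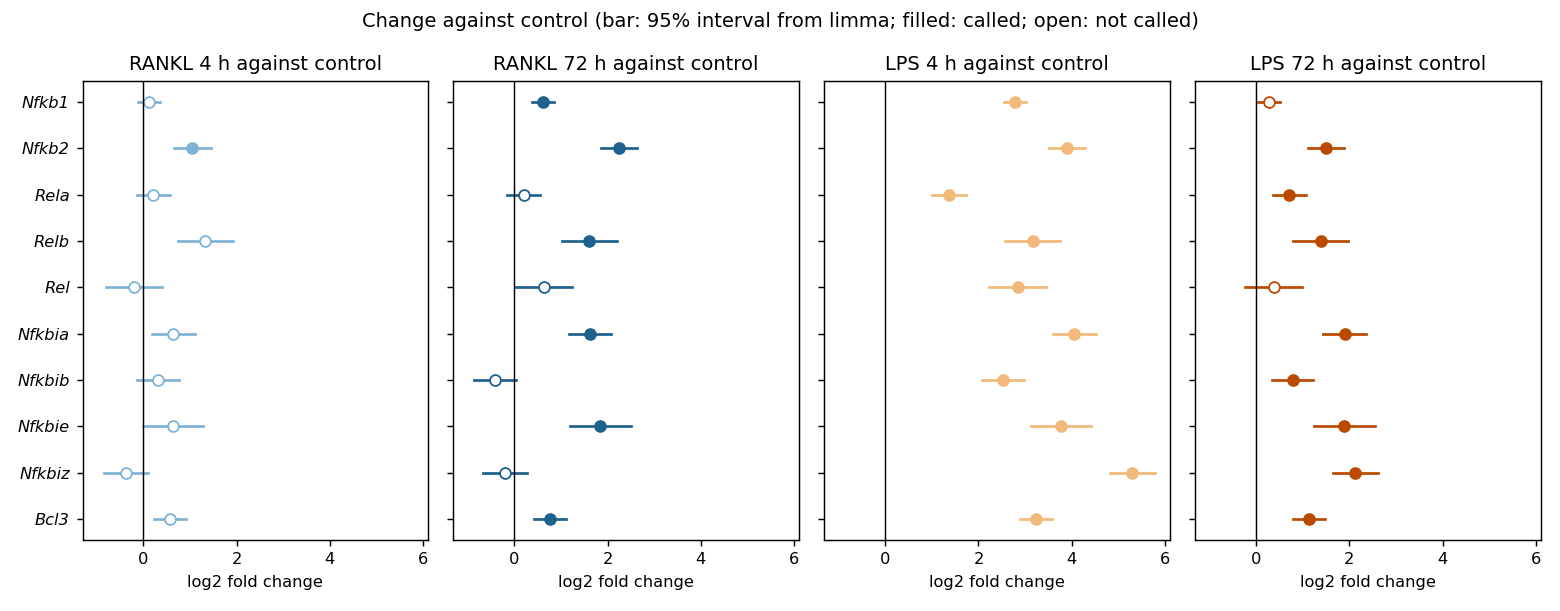
Log2 fold change of each gene against control in the 4 stimulated groups, with 95% intervals from limma. Filled points were called and open points were not: the filled points number 1 and 6 for RANKL (4 h, 72 h) and 10 and 8 for LPS.

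The scaling of the libraries bears on these values most in LPS 4 h, where the median tested gene was at -0.52. With libraries centred on their median gene, the members' changes in LPS 4 h ran from 1.93 (*Rela*) to 5.86 (*Nfkbiz*) and 10 of 10 stayed called. Of all tested genes, 990 were called higher and 4660 lower in LPS 4 h as deposited, and 1871 and 1529 after centring. For RANKL 72 h the numbers were 1951 and 886 as deposited and 1167 and 1428 after centring, where 4 members were called higher (*Nfkb2*, *Relb*, *Nfkbia* and *Nfkbie*) and 1 lower (*Nfkbib*). In LPS 72 h 8 members were called higher under either scaling, beside 1522 higher and 1690 lower genes as deposited and 1212 and 1887 after centring.

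Neutrophil and stromal markers moved with the 72 h groups, as given above. Of 9 neutrophil markers, 5 were lower in RANKL 72 h and 9 in LPS 72 h than in control, the latter also without its replicate 3. Of 15 stromal markers, 8 were higher in RANKL 72 h, while in LPS 72 h 2 were higher and 2 lower, or 1 and 5 without its replicate 3. Of 5 B cell markers, whose sum was at most 20.9 FPKM in any library, 4 were lower in RANKL 72 h and 5 in LPS 72 h, and of 4 dendritic cell markers 1 and 2 were lower. Without replicate 3 of LPS 72 h, the LPS 72 h counts were 5 and 1. Of 4 T cell markers 0 were called in any of the 4 contrasts. At 4 h, 0 of 9 neutrophil and 0 of 15 stromal markers were called in either RANKL or LPS. In LPS 4 h 1 of 5 B cell markers was lower, and the T cell and dendritic cell lists held no called gene at 4 h. Among 10 macrophage markers, 1 was higher in LPS 4 h, and 1 was higher and 1 lower in RANKL 72 h. The osteoclast list of 10 held 1 higher and 2 lower genes in LPS 4 h. Shares of all tested genes to set beside these counts are those given above for each contrast with control. The part of these cell types in the members' changes at 72 h was not tested.

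RANKL and LPS were then compared at the same time. At 4 h, every member was lower in RANKL than in LPS, 10 of 10 called, beside 8.98% of all tested genes called lower. The differences ran from -1.15 (SE 0.17, *Rela*) to -5.67 (SE 0.22, *Nfkbiz*), with a median of -2.75 against 0.53 over all tested genes. At 72 h, 3 members were called. *Nfkb2* was higher in RANKL (0.75, SE 0.18, limma adjusted p = 0.00422), and 1 of 10 members was called higher beside 23.3% of all tested genes. *Nfkbib* (-1.20, SE 0.21, adjusted p = 0.000394) and *Nfkbiz* (-2.32, SE 0.22, adjusted p = 2.81e-06) were lower in RANKL, 2 of 10 members beside 12.8% of all tested genes.

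Between RANKL 72 h and LPS 72 h, the levels of 5 of 10 members did not overlap, near the 51.5% of all tested genes. Among the members that overlapped, 4 had intervals of the difference that included 0. These were *Relb* at 0.22 (95% interval -0.37 to 0.81), *Rel* at 0.26 (-0.35 to 0.87), *Nfkbia* at -0.28 (-0.73 to 0.18) and *Nfkbie* at -0.05 (-0.69 to 0.60). For *Nfkb1* (0.34, 0.11 to 0.58) and *Bcl3* (-0.38, -0.72 to -0.03) the interval did not include 0, but the difference was under the fold threshold. *Rela* overlapped too and was at -0.51 (-0.87 to -0.15), also under that threshold. Without replicate 3 of LPS 72 h, however, it was at -0.75 and was called lower in RANKL (limma adjusted p = 0.000122), as it was after centring (-0.65). Without that library *Nfkb2* was at 0.67, *Nfkbib* at -1.44 and *Nfkbiz* at -2.30, and all 3 stayed called. Beside them, 24.3% of all tested genes were called higher and 17% lower. The members not called were at 0.32 (*Nfkb1*), 0.15 (*Relb*), 0.13 (*Rel*), -0.45 (*Nfkbia*), -0.16 (*Nfkbie*) and -0.33 (*Bcl3*) without it.

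**Figure D4:**
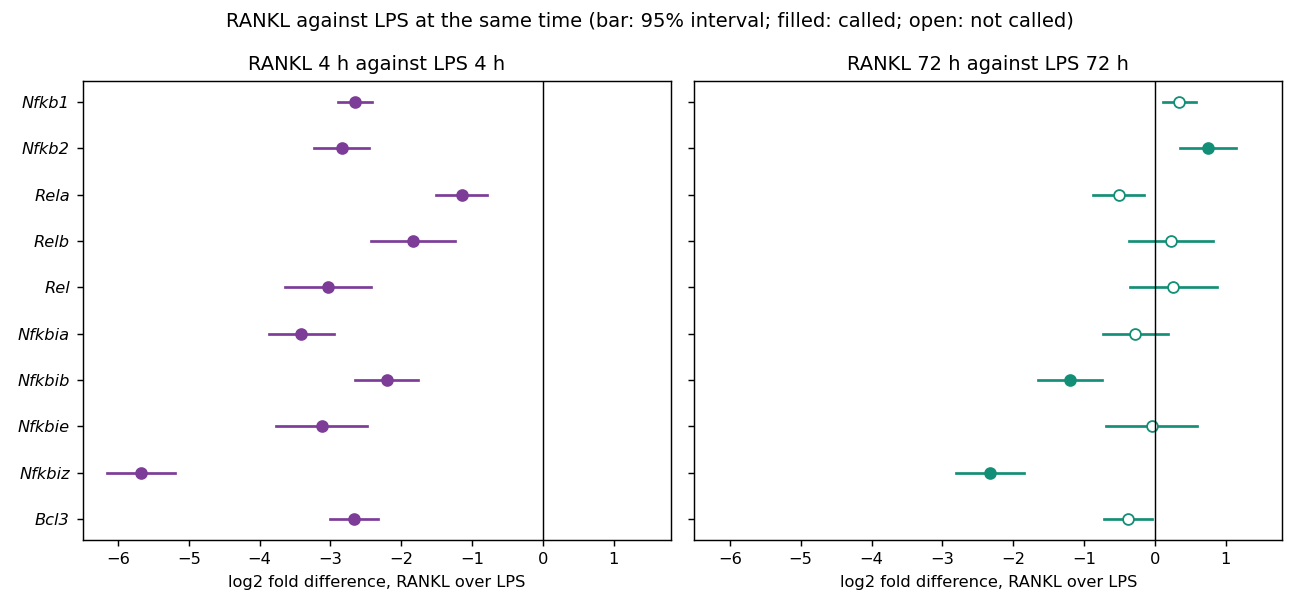
Log2 fold difference of RANKL over LPS at 4 h (left) and 72 h (right) for each gene, with 95% intervals from limma, filled where called. At 4 h all 10 lie below 0, and at 72 h *Nfkb2* lies above 0 and *Nfkbib* and *Nfkbiz* below, with the other points open.

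Over time all 10 members fell under LPS, whereas under RANKL 4 rose, 1 fell and 5 were not called. From 4 h to 72 h of RANKL, *Nfkb2* (1.19, SE 0.18), *Nfkbie* (1.21, SE 0.30), *Nfkbia* (0.98, SE 0.21) and *Rel* (0.84, SE 0.28) rose and *Nfkbib* (-0.74, SE 0.21) fell. These are 4 of 10 members called higher beside 16.4% of all tested genes and 1 of 10 called lower beside 6.83%. The *Rel* call, with an adjusted p of 0.0399 by limma, was lost in 9 of 26 alternatives, among them leaving out any RANKL 72 h library or RANKL 4 h replicate 1. *Nfkbib* was no longer called without RANKL 72 h replicate 1 (-0.70, adjusted p = 0.0519) or RANKL 4 h replicate 1 (-0.65, adjusted p = 0.0692). *Nfkb1* was at 0.50 (95% interval 0.26 to 0.73), under the fold threshold, and *Relb* at 0.28 (-0.31 to 0.87). *Rela* (-0.02), *Nfkbiz* (0.18) and *Bcl3* (0.20) were not called either.

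From 4 h to 72 h of LPS, all 10 members fell, beside 13.9% of all tested genes called lower. The falls ran from -0.65 (*Rela*) to -3.17 (*Nfkbiz*), with a median of -2.12 against 0.52 over all tested genes. Without replicate 3 of LPS 72 h, 9 of 10 stayed called, from -1.51 (*Nfkbib*) to -3.20 (*Nfkbiz*), and *Rela* was at -0.41, under the fold threshold. In that fit 14.8% of all tested genes were called lower. *Rela* was also not called without LPS 4 h replicate 1 (-0.59). The difference between the courses, RANKL from 4 h to 72 h minus LPS from 4 h to 72 h, was called above 0 for 10 of 10 members, beside 15.4% of all tested genes. It ran from 0.63 (SE 0.24, *Rela*, limma adjusted p = 0.0364) to 3.59 (SE 0.26, *Nfkb2*, adjusted p = 5.05e-07). The *Rela* call was lost in 11 of 26 alternatives and was at 0.39 without replicate 3 of LPS 72 h, whereas the other 9 members stayed called without it, at 0.77 (*Nfkbib*) to 3.51 (*Nfkb2*).

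The rest of the pathway was followed with 3 lists of known genes. Of 26 kinases and adaptors that carry the signal to NF-κB, 0 were called in RANKL 4 h, also at an unadjusted p under 0.05. At 72 h of RANKL 6 rose and 3 fell, with a list median of 0.21 beside 0.16 over all genes. As shares of the list these are 23.1% and 11.5%, near the 16.6% and 7.54% of all tested genes. The largest rises were those of *Birc3*, a ubiquitin ligase of the receptor complexes (2.11, limma adjusted p = 1.32e-06), and *Malt1*, a scaffold protease (1.09, adjusted p = 0.0124), and *Myd88*, the adaptor of most Toll-like receptors, fell (-0.92, adjusted p = 0.000378). *Rnf31*, a subunit of the linear ubiquitin ligase, fell too (-0.79, adjusted p = 0.00191). In LPS 4 h 11 rose and 5 fell (median 0.18 beside -0.52), where 8.43% of all tested genes rose and 39.7% fell, led by *Malt1* (3.84) and *Birc3* (3.04), with *Map3k14*, the kinase of the noncanonical route (-1.80), and *Tab1* (-1.59) as the largest falls. At 72 h of LPS 8 rose and 1 fell (median 0.35 beside 0.08), where 13.0% of all tested genes rose and 14.4% fell, with *Birc3* (1.58) and *Ikbkg*, the regulatory subunit of IκB kinase (0.90), ahead and *Tab1* lower (-0.74). Without replicate 3 of LPS 72 h, 11 rose and 1 fell, beside the shares of all tested genes given above for that fit. After centring, 3 rose and 5 fell in RANKL 72 h, where 9.94% of all tested genes rose and 12.2% fell.

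Of 16 other inhibitors and deubiquitinases of the pathway, 0 were called in RANKL 4 h. At an unadjusted p under 0.05, 1 passed in each direction, beside 1.21% of all tested genes as higher and 1.35% as lower. In RANKL 72 h 3 rose and 2 fell (median -0.09 beside 0.16). As shares of the list these are 18.8% and 12.5%, again near those of all tested genes (16.6% and 7.54%). *Tnip3*, a partner of the deubiquitinase A20 (1.87), and *Otud7b* (0.75) rose most, and *Nkiras1* (-1.02) and *Nlrc5* (-0.73) fell. After centring, 1 of the 16 rose and 2 fell, where 9.94% of all tested genes rose and 12.2% fell. In LPS 4 h 8 rose and 3 fell (median 0.56 beside -0.52), where 8.43% of all tested genes rose and 39.7% fell. The rises were led by *Tnip3* (5.54) and *Tnfaip3*, which encodes A20 itself (4.14). The falls were largest for *Nkiras1* (-0.88) and *Pdlim2* (-0.69). After centring 9 rose and 0 fell in LPS 4 h, beside 15.9% and 13% of all tested genes. At 72 h of LPS 3 rose and 0 fell (median 0.37 beside 0.08), where 13.0% of all tested genes rose and 14.4% fell. The 3 rises are 18.8% of the list, near the share of all tested genes. *Irak3*, a brake on Toll-like receptor signalling (2.51), and *Tnip1* (1.19) rose most. Without replicate 3 the number that rose was 7, beside the share of all tested genes given above for that fit.

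Of 31 genes known as NF-κB targets in inflammation, 27 rose and 2 fell in LPS 4 h, with a list median of 4.60 beside -0.52 over all genes. Of all tested genes, 8.43% rose and 39.7% fell there. *Nos2*, the inducible nitric oxide synthase, rose from 0.813 ± 0.669 FPKM (SD, n = 3) to 347 ± 91.4, a log2 change of 8.77, and *Il6* from 0.559 ± 0.208 to 272 ± 8.93, a change of 8.74. *Plau* (-2.12) and *Bcl2l1* (-1.62) fell. In LPS 72 h 17 rose and 2 fell (median 1.33 beside 0.08), where 13.0% of all tested genes rose and 14.4% fell. The acute-phase gene *Saa3* (6.72) and *Nos2* (5.92) rose most, and *Plau* (-1.28) and *Ccl4* (-1.01) were lower. Without replicate 3 the numbers were 20 and 2, beside the shares of all tested genes given above for that fit.

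The same 31 target genes moved otherwise under RANKL. In RANKL 4 h, 0 were called at the adjusted threshold. At an unadjusted p under 0.05, 1 passed as higher and 2 as lower, beside 1.21% and 1.35% of all tested genes. At 72 h of RANKL 3 rose and 14 fell, with a median of -0.84 beside 0.16. Of all tested genes 16.6% rose and 7.54% fell, so rises were a smaller part of the list and falls a larger part. *Traf1*, an adaptor of tumour necrosis factor receptors (2.84, limma adjusted p = 2.88e-05), and *Nos2* (1.5, adjusted p = 0.0397) rose most, and the chemokine genes *Ccl2* (-3.72) and *Ccl3* (-3.62) fell most. *Nos2* was low, at 0.367 to 1.58 FPKM in the control libraries and 1.54 to 2.68 in RANKL 72 h, so that these groups overlapped. *Tnf* was at 18.6 ± 4.28 FPKM in control and 8.29 ± 1.53 in RANKL 72 h, against 1970 ± 455 in LPS 4 h, and its fall in RANKL 72 h was called. The neutrophil and stromal markers moved in RANKL 72 h as well, and their part in these falls was not tested. *Nfatc1*, the main transcription factor of osteoclast formation, was at 7.74 ± 1.54 FPKM in control, 7.26 ± 0.787 in RANKL 4 h and 44.2 ± 18.5 in RANKL 72 h, and *Ctsk*, its protease target, at 23.97 ± 8.73, 24.9 ± 9.60 and 1060 ± 568. *Acp5*, the gene of the osteoclast phosphatase TRAP, was at 58.6 ± 27.0, 59.3 ± 19.4 and 613 ± 326 FPKM in these groups. At RANKL 4 h each of these 3 genes overlapped control.

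**Figure D5:**
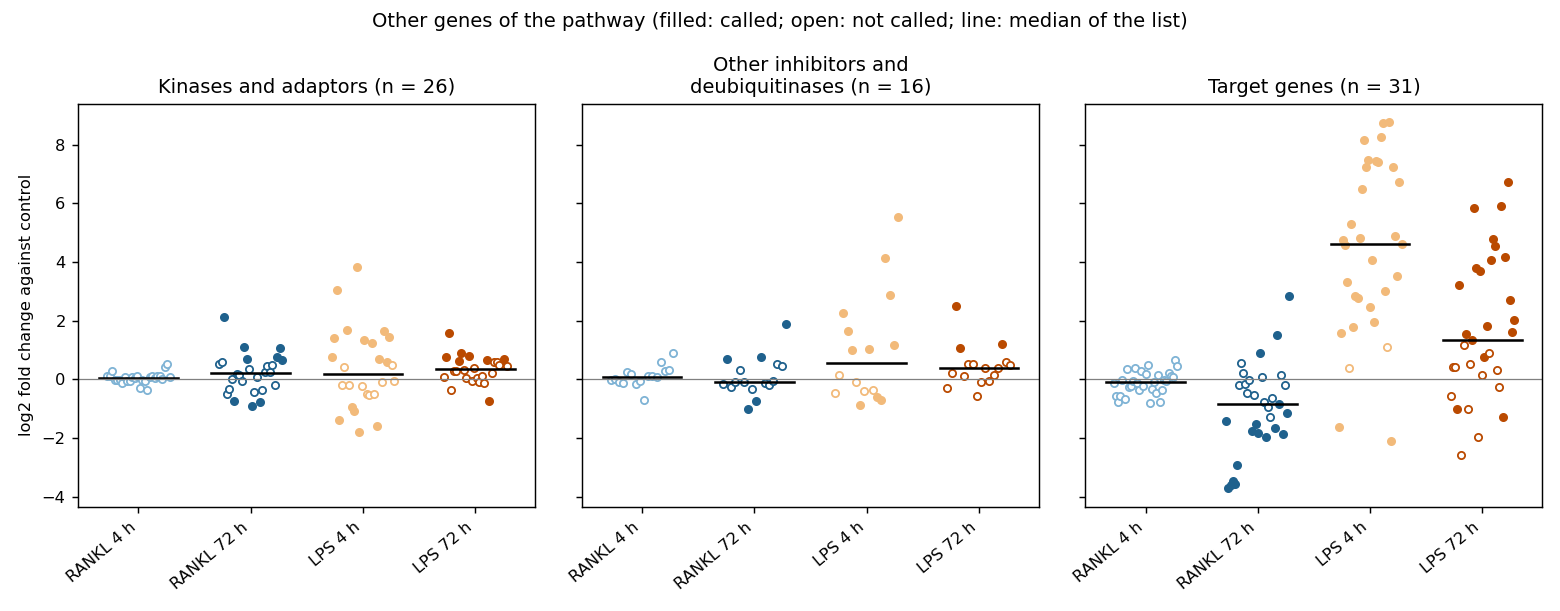
Log2 fold change against control of each gene in the lists of kinases and adaptors (26 genes), other inhibitors and deubiquitinases (16) and target genes (31), with a line at the list median and filled points for called genes. The target gene median is 4.60 in LPS 4 h, 1.33 in LPS 72 h and -0.84 in RANKL 72 h.

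Across the 15 libraries the members followed each other, with Pearson's r of log2(FPKM + 0.1) between 0.73 and 0.98 over 45 pairs (median 0.89). The libraries share 5 groups and the single LPS 4 h group lies far above the rest for every member, so these values describe the pattern of the groups and carry no test. Among 9485 other genes averaging 1 FPKM or more, those most like *Nfkb1* were *Kpna3* (r = 0.99) and *Tnfsf15* (0.99), and those most like *Nfkb2* were *Rnf19b* (0.97) and *Traf1* (0.97). *Rela* was most like *Rabgef1* and *Sbds* (both 0.96), *Relb* like *Nfkb2* (0.96) and *Traf2* (0.95), and *Rel* like *Sec24b* (0.98) and *Malt1* (0.97). Of the inhibitors, *Nfkbia* was most like *Junb* (0.99) and *Rnf19b* (0.98), *Nfkbie* like *Nfkbia* (0.98) and *Traf1* (0.97), and *Nfkbib* like *Tnf* (0.99) and *Katna1* (0.98). *Nfkbiz* was closest to *Samsn1* (0.99) and *Stat3* (0.98), and *Bcl3* to *Junb* and *Rnd1* (both 0.98).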

How the data were processed

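The authors deposited 1 FPKM value per gene and library, made with StringTie and Ballgown according to the methods. The submitters' processing notes name StringTie, with no version, and the builds GRCm38.p4 and mm10. The aligner is not given in the sources used here. The table analysed ends within the entry for *Ttk*, and later genes were not analysed here. FPKM are whole multiples of a step set by gene and library, from which fragments were recovered for 14485 of 14485 genes above 0 in at least 3 libraries, within 0.01 of a whole fragment. Summed over these genes, the fragments ran from 18306184 to 20330207 per library. This is a part of the depth, since genes after *Ttk* are left out. Since amplified fragments are not independent molecules, counting error understates the true error.

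Groups and replicate numbers came from the labels. From the FPKM, log2(FPKM + 0.1) was tested with limma 3.58.1 (R 4.3.3; lmFit, eBayes with a trend) in 1 fit of 5 groups over the 11743 genes averaging 0.1 FPKM or more. The study's methods use an unadjusted p, which was an alternative here. The fit was tested on simulated data. Single genes were also compared by exact permutation tests. The other alternatives were pseudocounts of 1 and 0.01, no filter or a filter at 1 FPKM, equal sums, centring on the median gene, only the groups of the contrast, a replicate block, no trend, limma voom on recovered fragments and leaving out each library. The replicate numbers were checked for pairing by the correlation, over 9486 genes, of deviations from the group means. Each same-numbered pair was above 0.1 among the control, RANKL and LPS 4 h groups, which the labels do not explain, but not with LPS 72 h (lowest -0.229). Pairs were strongest between control and RANKL 4 h (0.842, 0.707 and 0.743). They were 0.555 to 0.692 between RANKL 4 h and LPS 4 h and 0.44 to 0.624 between control and LPS 4 h. The lowest, 0.103, was between RANKL 72 h and LPS 4 h. The main fit does not use this pairing, and the replicate block does. The 10 members, the 3 pathway lists and the markers were chosen with earlier results of these data known. Named in the text are all members, the 2 largest called rises and falls of each list in each contrast with control, the 2 genes most correlated with each member, the markers *Nfatc1*, *Ctsk*, *Acp5*, *Il6*, *Nos2* and *Tnf*, and genes that overlap a member. Sequences are RefSeq windows of GRCm38.p6. Python 3.11.15, numpy 2.4.6, pandas 2.3.3, scipy 1.17.1 and matplotlib 3.10.9 served for the rest.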

Additional observations from a re-analysis of the deposited data

Results flagged for a closer look

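The time courses of the stimuli differed by the test of the difference itself (limma), with 10 of 10 members called above 0. Beside them, 15.4% of all tested genes were called above 0 and 33.7% below. Without replicate 3 of LPS 72 h, 9 of 10 members were called, and the share of all tested genes in that fit is not given here. The exception was *Rela*, whose difference of 0.63 (adjusted p = 0.0364) was lost in 11 of 26 alternatives and was 0.39 without that library, and whose change under LPS was then -0.41. The changes from 4 h to 72 h are given here by stimulus, on the log2 scale. Under LPS they were -2.50 for *Nfkb1*, -2.40 for *Nfkb2*, -0.65 for *Rela*, -1.77 for *Relb*, -2.46 for *Rel*, -2.16 for *Nfkbia*, -1.75 for *Nfkbib*, -1.87 for *Nfkbie*, -3.17 for *Nfkbiz* and -2.09 for *Bcl3*. Under RANKL, *Nfkb2* (1.19), *Rel* (0.84), *Nfkbia* (0.98) and *Nfkbie* (1.21) moved the other way. *Nfkbib* (-0.74) fell under both stimuli, by less under RANKL. The rank of a single library within a group could not be judged with 3 libraries a group.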

How the results depend on the processing

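Over 26 alternatives and 9 contrasts, the changes of single members gave 2340 values, of which 2283 kept their side of the threshold, 47 lost the call, 10 gained it and 0 turned a call's direction. The number of members changed in RANKL 4 h was the least stable. It was 1 as reported, 0 with a pseudocount of 1, with no filter on low values, with centring on the median gene, with only the groups of the contrast in the fit and with no trend, and 3 at an unadjusted p. Leaving out 1 library gave 0 to 2. The number changed from RANKL 4 h to RANKL 72 h was 5 as reported and 3 to 5 on leaving out 1 library, the 3 arising without RANKL 72 h replicate 1 or RANKL 4 h replicate 1. The replicate block raised the number in RANKL 4 h to 2 and changed no other call of a member. Limma voom on recovered fragments changed no call of a member. Over all tested genes, 14 were called in RANKL 4 h as reported, 6 with no filter, 0 with only the groups of the contrast, 24 under the block, 3 with no trend, 301 at an unadjusted p and 1 to 17 on leaving out 1 library. Centring turned 990 genes higher and 4660 lower in LPS 4 h into 1871 and 1529, and 4818 higher and 1054 lower in RANKL 4 h against LPS 4 h into 1580 and 1905, over 1.5 times fewer in all, with 10 of 10 members called either way. It also moved the split of called genes from 2739 and 1506 to 2237 and 2045 in RANKL 72 h against LPS 72 h, from 1930 and 802 to 1141 and 1351 in RANKL 72 h against 4 h, from 5186 and 1631 to 2209 and 3224 in LPS 72 h against 4 h, and from 1805 and 3953 to 2793 and 2282 for the difference of the courses.

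With 3 libraries a group and no 72 h control, time in culture cannot be separated from the stimulus. The lowest value of any member rested on 120 fragments.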
